A study of Mus musculus with 28 samples.

Results

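The transcripts of 10 genes of apoptotic cell recognition, out of 55487 gene IDs, were compared across 28 RNA sequencing libraries. The cells were mouse bone marrow derived macrophages, that is, cells matured in culture from marrow precursors. The 10 genes were chosen by name, with no threshold on their values: the TAM receptors Mertk, Axl and Tyro3, their ligands Gas6 and Pros1, the bridging protein Mfge8, the phosphatidylserine receptors Timd4 and Stab1, and the integrin subunits Itgav and Itgb3. All cells were wild-type, and the libraries fell into 7 groups of 4. In the M0 group no cytokine was added. In the other groups the macrophages were kept for 48 h with IFN-γ or with IL-10, each at 50 ng/mL, were given apoptotic CD4 T cells and were sorted into cells with engulfed regulatory T cells (Treg-phagocytic), with engulfed conventional T cells (Tconv-phagocytic) and with none (non-phagocytic). ATP or NAD+ was used to kill the T cells, per the labels, and these carried an antibody against CD4 with a fluorescent dye. T cells and uptake are not mentioned for M0, so the cytokine cannot be told apart from co-culture and sorting in a comparison with M0. Macrophages were sorted after they had engulfed, so a change that followed uptake cannot be told apart from a difference that preceded it. Rose, fell and similar words below only compare groups. The labels give no mouse strain, sex or age and do not say that replicates came from separate animals or cultures, so the p-values below measure only the spread between these libraries, which may be technical. The series asks what engulfing dead Treg or Tconv cells does to macrophage transcripts under either polarization.

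Dying cells turn phosphatidylserine, a lipid normally held on the inner side of the plasma membrane, to the outside, and macrophages read it as a signal to engulf. TAM receptors are receptor tyrosine kinases that do not touch the lipid themselves: Gas6 and protein S (Pros1), which need vitamin K dependent carboxylation, bind it and bridge the dead cell to the receptor. Gas6 binds Mertk, Axl and Tyro3, whereas protein S binds Mertk and Tyro3 but not Axl. MFG-E8 (Mfge8) bridges phosphatidylserine to integrins that contain the αv subunit (Itgav), among them the pair with β3 (Itgb3). TIM-4 (Timd4) and stabilin-1 (Stab1) bind the lipid directly. In macrophages, TAM signalling is known for promoting engulfment and for restraining inflammatory cytokine responses, with Mertk linked to tolerogenic settings and Axl to inflammatory ones.

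The bases upstream of 4 of these genes are shown because they are the receptor pair and the ligand pair whose values are compared below. RefSeq promoters (GRCm38.p6) were found for 9 of the 10 genes by symbol, and Itgb3 had no entry. Each sequence is the 250 bases before the start, 5′ to 3′ on the strand of the gene, at chr2:128698665-128698914 (plus strand) for Mertk, chr7:25788734-25788983 (minus strand) for Axl, chr8:13494536-13494785 (minus strand) for Gas6 and chr16:62854057-62854306 (plus strand) for Pros1. Capitals mark a match to any of 4 motifs searched on both strands.
Mertk: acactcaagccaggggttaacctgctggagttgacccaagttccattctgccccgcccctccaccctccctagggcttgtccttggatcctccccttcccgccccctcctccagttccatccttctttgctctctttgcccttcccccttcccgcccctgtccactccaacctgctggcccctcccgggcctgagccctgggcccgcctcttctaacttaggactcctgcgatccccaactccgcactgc
Axl: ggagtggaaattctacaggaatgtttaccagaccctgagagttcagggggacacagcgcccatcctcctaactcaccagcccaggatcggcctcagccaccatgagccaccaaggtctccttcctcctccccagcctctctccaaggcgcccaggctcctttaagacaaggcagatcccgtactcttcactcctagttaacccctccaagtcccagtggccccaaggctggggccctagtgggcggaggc
Gas6: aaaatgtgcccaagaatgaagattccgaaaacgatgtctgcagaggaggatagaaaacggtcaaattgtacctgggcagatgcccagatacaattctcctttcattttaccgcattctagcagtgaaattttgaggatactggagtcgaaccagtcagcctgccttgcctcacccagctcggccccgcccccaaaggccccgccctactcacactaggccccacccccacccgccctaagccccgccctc
Pros1: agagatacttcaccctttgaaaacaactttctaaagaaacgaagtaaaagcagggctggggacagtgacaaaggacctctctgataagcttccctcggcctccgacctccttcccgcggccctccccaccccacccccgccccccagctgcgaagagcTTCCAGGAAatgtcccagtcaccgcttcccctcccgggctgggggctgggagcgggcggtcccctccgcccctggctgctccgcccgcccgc

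Over the window of 300 bases (250 before to 50 after the start), the palindromic STAT motif TTCNNNGAA was matched by 1 of the 9 genes. It is the TTCCAGGAA that starts 92 bases before the start of Pros1. That motif occurred in 8.30% of all 32851 RefSeq promoters of that length. The MAF motif TGCTGAC was matched on the minus strand in Timd4 only, 45 bases before the start, and in 4.67% of all promoters. The interferon-stimulated response element core TTTCNNTTTC (3.44% of all promoters) and the LXR repeat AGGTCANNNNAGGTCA (0.0152%) were in none of the 9 windows. No matches overlapped. A match is a description of these letters and not a binding site, and the absence of these letters says nothing of the factor.

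On GRCm38 (GENCODE vM21), the protein-coding genes lie at chr2:128698956-128802894 for Mertk, chr7:25757273-25788705 for Axl, chr2:119797733-119818104 for Tyro3, chr8:13465374-13494490 for Gas6 and chr16:62854307-62929346 for Pros1. Mfge8 is at chr7:79133768-79149060, Timd4 at chr11:46810800-46844332, Stab1 at chr14:31139013-31168641, Itgav at chr2:83724397-83806916 and Itgb3 at chr11:104608000-104670476. Stab1 shares 112 exonic bases with Nt5dc2 on the opposite strand, which reached 86.3 TPM, and Itgav shares 634 with Gm13684 on the opposite strand, which reached 2.75 TPM. The library kit marks strand, but whether the counting used it is not given in the sources used here, so reads of these pairs may not have been told apart.

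Values are TPM, a transcript share that is corrected for gene length and sums to the same total in every library, so levels can be set side by side between genes. Relative depth, read from the steps between low TPM values, was 11.2% to 24.3% of the deepest library under IFN-γ, 49.2% to 90.1% under IL-10 and 68.9% to 100% in M0, so low genes were measured least well under IFN-γ. Macrophage markers were present in every group (10 of 10 above 0, summing to 19163 to 24134 TPM). T cell markers (12 of 12 above 0) summed to 546 to 989 TPM in the IFN-γ libraries, to 169 to 308 under IL-10 and to 193 to 290 in M0. Il7r alone made up 154 to 165 TPM of that sum in M0 and 86.9 to 118.5 TPM in the other libraries, and it was lower under IFN-γ than in M0, whereas the other 11 markers were higher (median of the 12 log2 fold changes 3.08 in non-phagocytic libraries). Stromal markers, of which Lum was at 0 in 6 of the 7 groups, summed to 136 to 156 TPM in M0, 3.71 to 14.0 under IFN-γ, and under IL-10 to 99.1 to 103 in non-phagocytic, 171 to 187 in Tconv-phagocytic and 32.7 to 36.3 in Treg-phagocytic libraries. In bulk RNA, fewer cells of a type and less RNA per cell cannot be told apart. The part of these markers in the results below was not tested. For the 8 Treg-phagocytic libraries the title gives another dye (BV421 or Ax647) than the library name does, and the title is used here to name every phagocytic library.

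In non-phagocytic macrophages, the TAM ligands Gas6 and Pros1 and the αv subunit differed from M0 in opposite directions under IFN-γ and IL-10. In the same libraries, Axl and Itgb3 were higher under IFN-γ than under IL-10. With uptake, Axl was lower under IFN-γ (mean 39.3 TPM with Tconv, 35.6 with Treg) than under IL-10 (57.9 and 61.3). That order was not tested. Relative to M0, Gas6, Pros1, Stab1 and Itgav fell under IFN-γ and rose under IL-10 in non-phagocytic macrophages, whereas Mfge8 fell under both. In non-phagocytic macrophages under IFN-γ against M0, 8 of the 10 genes passed the filter on low values and 6 were called (limma adjusted p under 0.05), 1 higher and 5 lower, beside 56.9% of all 12068 genes tested. Without scaling, 0 were higher and 6 lower. Under IL-10 against M0, 7 of 8 were called, 4 higher and 3 lower, beside 30.7% of 11883 genes. Between IFN-γ and IL-10, all 8 tested were called, 3 higher and 5 lower under IFN-γ, beside 54.7% of 12089 genes. The median log2 fold change of the 8 genes was -0.38, 0.24 and -0.42 in these comparisons, against -0.02, -0.00 and -0.02 over all genes tested. The 3 comparisons share libraries pairwise.

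Mertk, the TAM kinase most closely tied to engulfment by macrophages, lay at 21.7, 20.3, 20.2 and 19.8 TPM in M0. It was at 20.4, 21.9, 21.5 and 22.2 TPM in non-phagocytic libraries under IFN-γ and at 22.9, 24.5, 22.0 and 22.6 TPM under IL-10. The M0 and IFN-γ values overlapped as TPM, and the IL-10 libraries sat slightly above M0. After scaling for composition, Mertk was higher under IFN-γ than in M0 by 0.35 on the log2 scale (SE 0.07, limma adjusted p = 0.00189), but without scaling the difference was 0.07 (limma adjusted p = 0.427; range over 16 alternatives 3.66e-04 to 0.427). The log2 difference of 0.14 between IL-10 and M0 just missed the threshold (limma adjusted p = 0.05 after rounding). Mertk was called higher under IFN-γ than under IL-10 by 0.21 (limma adjusted p = 0.0309), a direction that reversed to -0.09 without scaling. Its order between the cytokines therefore rested on the scaling, which moved the median of all genes in IFN-γ against IL-10 from -0.30 to -0.02 and in IFN-γ against M0 from -0.29 to -0.02.

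Axl, which needs Gas6 as its ligand, had 47.2, 44.5, 59.2 and 51.7 TPM in M0. Non-phagocytic libraries had 51.7, 50.7, 38.5 and 39.7 TPM under IFN-γ and only 22.5, 25.5, 25.5 and 31.4 TPM under IL-10. Every IL-10 library was below every library of the other 2 groups, which overlapped with each other. Axl was lower by -0.94 under IL-10 than in M0 (SE 0.11, limma adjusted p = 1.33e-04) and 1.07 higher under IFN-γ than under IL-10 (SE 0.13, limma adjusted p = 9.99e-05), a 2.09-fold difference. The difference between IFN-γ and M0 was 0.13 (95% confidence interval -0.16 to 0.41) and was not called.

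Tyro3, the TAM member best known from the nervous system, was near the floor of detection. It lay between 0.15 and 0.29 TPM in M0, between 0.00 and 0.45 TPM in non-phagocytic libraries under IFN-γ and between 0.05 and 0.33 TPM under IL-10. Timd4, a receptor typical of resident tissue macrophages, was at 0.00 to 0.08 TPM in M0, 0.00 to 0.58 under IFN-γ and 0.00 to 0.04 under IL-10. Neither gene passed the filter in these comparisons. Stab1, a scavenger receptor, was abundant, with 80.4, 82.0, 80.7 and 76.7 TPM in M0. It was at 48.6, 52.9, 62.5 and 56.6 TPM under IFN-γ and 102, 101, 99.8 and 105 TPM under IL-10. The 3 groups did not overlap. Stab1 was 0.33 higher under IL-10 than in M0 (SE 0.03, limma adjusted p = 2.76e-05) and -0.24 lower under IFN-γ than in M0 (SE 0.07, limma adjusted p = 0.0183), a call that was lost without M0 replicate 2 (limma adjusted p = 0.0539).

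**Figure D1:**
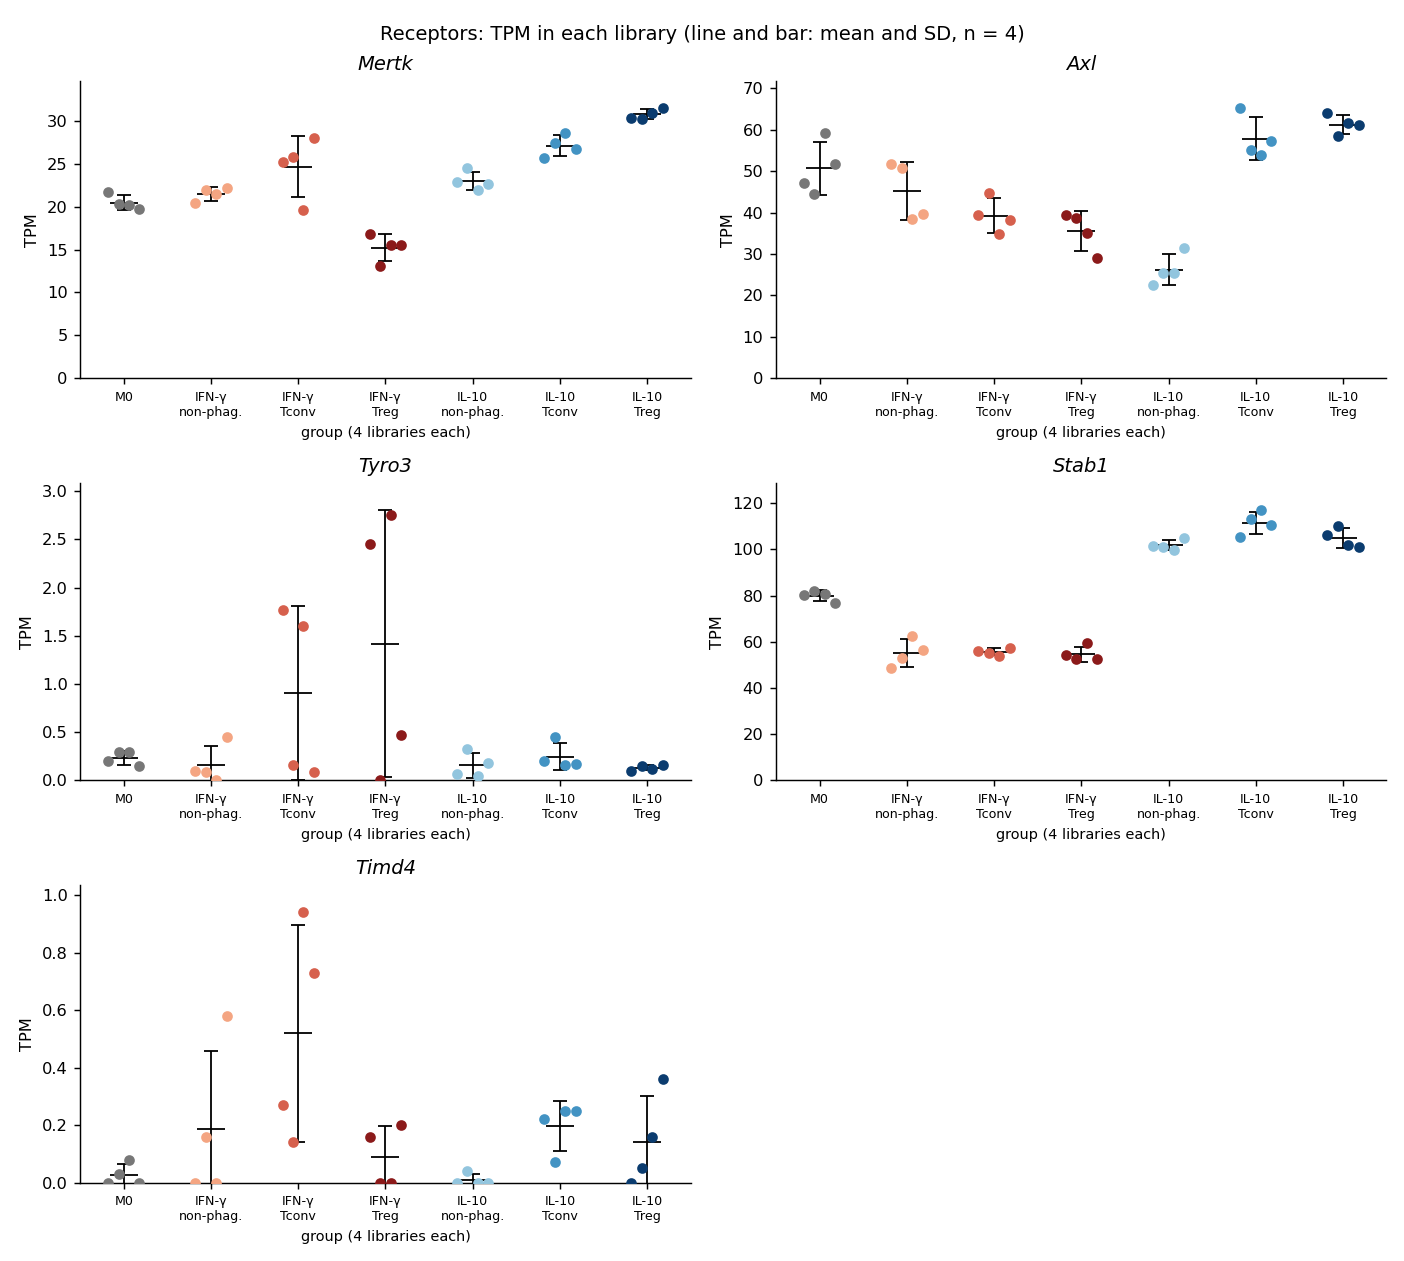
TPM (vertical axes, each starting at 0) of Mertk, Axl, Tyro3, Stab1 and Timd4 in the 7 groups. Points are single libraries, lines and bars the mean and SD of 4; Axl is lowest in non-phagocytic IL-10 macrophages, Mertk lowest in Treg-phagocytic IFN-γ macrophages, and Tyro3 and Timd4 stay below 3 TPM.

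Among the bridging proteins, Gas6 was present at 179, 186, 186 and 181 TPM in M0. It had 118, 111, 112 and 109 TPM under IFN-γ and 254, 245, 245 and 254 TPM under IL-10. The groups were fully separated. Gas6 fell by 0.40 under IFN-γ (SE 0.04, limma adjusted p = 3.55e-05) and rose by 0.43 under IL-10 (SE 0.03, limma adjusted p = 1.64e-06), both on the log2 scale and against M0. Pros1, the other TAM ligand, was far less abundant. It lay at 12.4, 12.01, 10.8 and 14.8 TPM in M0, 9.50, 4.28, 5.25 and 5.58 TPM under IFN-γ and 20.9, 25.4, 26.3 and 22.9 TPM under IL-10. The order was that of Gas6, with 1 IFN-γ library well above the other 3 of its group. Pros1 rose by 0.86 under IL-10 (SE 0.10, limma adjusted p = 1.39e-04). Its fall by 0.69 under IFN-γ (SE 0.21, limma adjusted p = 0.0181) was lost without M0 replicate 4 (limma adjusted p = 0.0556). Between the cytokines, Pros1 had the largest difference of the 8 tested genes, -1.55 under IFN-γ against IL-10 (SE 0.20, limma adjusted p = 1.41e-04), or 2.94-fold.

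Mfge8 was the most abundant of the 10 genes in M0, at 503, 533, 513 and 526 TPM. It was at 207, 227, 205 and 206 TPM under IFN-γ and at 327, 312, 312 and 319 TPM under IL-10. Neither cytokine group reached the M0 values. The log2 fold change against M0 was -0.99 under IFN-γ (SE 0.04, limma adjusted p = 1.38e-07) and -0.72 under IL-10 (SE 0.03, limma adjusted p = 6.94e-08).

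Of the integrin subunits, Itgav had 31.2, 33.4, 40.1 and 31.0 TPM in M0. It had 17.7, 21.3, 17.4 and 15.6 TPM under IFN-γ and 46.1, 44.5, 50.0 and 42.2 TPM under IL-10. No library of a group overlapped another group. Itgav fell by 0.59 under IFN-γ (SE 0.12, limma adjusted p = 0.00175) and rose by 0.41 under IL-10 (SE 0.08, limma adjusted p = 0.00515). Its partner Itgb3 was much lower and moved otherwise, with 3.42, 3.31, 4.34 and 3.97 TPM in M0. It was at 2.03, 2.03, 3.34 and 1.54 TPM under IFN-γ and at 1.07, 0.96, 0.83 and 1.04 TPM under IL-10. All IL-10 libraries were below the others. Itgb3 fell by 1.23 under IL-10 (SE 0.11, limma adjusted p = 1.55e-05), and its log2 difference of -0.36 under IFN-γ was not called (limma adjusted p = 0.128). In the IL-10 fit it passed the filter only through M0, and the call held in all 15 alternatives, among them no filter.

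Stromal markers were also lower under IFN-γ (11.8 to 14.0 TPM in non-phagocytic libraries) than in M0, and 11 of 12 T cell markers higher and 1 lower (sum 546 to 899 TPM). Under IL-10 against M0, 7 of 7 stromal markers tested were lower, and of 12 T cell markers 1 was higher and 1 lower. Of the 10 macrophage markers, 3 were higher and 7 lower under IFN-γ than in M0, and 7 higher and 2 lower under IL-10 than in M0. The part of these markers was not tested.

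Under IL-10, uptake of either kind of T cell went with more Axl and more Mertk. Axl was higher by 2.29-fold with Tconv and 2.43-fold with Treg than in non-phagocytic macrophages, Mertk and Gas6 rose less, and Mfge8 fell. Of 8 genes tested in Tconv-phagocytic against non-phagocytic libraries, 6 were called, 5 higher and 1 lower, beside 7.26% of 11883 genes. Among the 6, Itgb3 passed the filter only through the Tconv libraries. In Treg-phagocytic against non-phagocytic libraries, 5 of 8 were called, 3 higher and 2 lower, beside 13.1% of 11885 genes. The median of the 8 genes was 0.24 and 0.20, against 0.01 and -0.00 over all genes tested. Both comparisons use the same 4 non-phagocytic libraries. Against these, T cell markers were also higher, 6 of 12 with Tconv (sum 193 to 236 against 169 to 182 TPM) and 12 of 12 with Treg (281 to 308 TPM). Of 8 stromal markers tested 6 were higher and 0 lower with Tconv, and 7 of 7 were lower with Treg. The part of these markers in the calls was not tested.

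Axl reached 53.8, 57.3, 65.3 and 55.2 TPM in Tconv-phagocytic libraries and 64.0, 58.4, 61.5 and 61.1 TPM in Treg-phagocytic libraries. None of these 8 libraries came near the highest non-phagocytic value of 31.4 TPM. The log2 fold change was 1.20 for Tconv (SE 0.10, limma adjusted p = 1.28e-04) and 1.28 for Treg (SE 0.09, limma adjusted p = 2.68e-05). Both calls held under all 17 alternatives tried. Mertk had 28.6, 26.7, 25.7 and 27.5 TPM after Tconv uptake and 30.4, 30.3, 31.0 and 31.5 TPM after Treg uptake. Each of these libraries exceeded all 4 non-phagocytic ones. Mertk rose by 0.31 with Tconv (SE 0.05, limma adjusted p = 0.00678) and by 0.48 with Treg (SE 0.05, limma adjusted p = 2.19e-04).

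Stab1 was at 117, 111, 106 and 113 TPM after Tconv uptake and at 106, 110.2, 102 and 101 TPM after Treg uptake. The Tconv libraries were above all non-phagocytic ones, and the Treg libraries overlapped with them as TPM. The rise of 0.21 with Tconv was called (SE 0.04, limma adjusted p = 0.00848) and was not called without scaling (limma adjusted p = 0.0533). With Treg the difference was 0.12 (limma adjusted p = 0.0564). Tyro3 stayed between 0.10 and 0.45 TPM and Timd4 between 0.00 and 0.36 TPM in these 8 libraries, and neither passed the filter.

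Gas6, the ligand of Axl, had 286, 284, 276 and 296 TPM after Tconv uptake and 286, 283, 289 and 285 TPM after Treg uptake. All 8 values lay above the non-phagocytic group. It rose by 0.28 with Tconv (SE 0.03, limma adjusted p = 5.48e-04) and by 0.28 with Treg (SE 0.02, limma adjusted p = 1.09e-04). Pros1 had 21.7, 19.7, 21.5 and 22.2 TPM after Tconv uptake and 24.9, 28.6, 20.3 and 17.7 TPM after Treg uptake. These ranges overlapped with the non-phagocytic one, and neither difference was called (-0.08, 95% confidence interval -0.25 to 0.09, and 0.00, -0.30 to 0.31). Mfge8 was down to 221, 216, 205 and 225 TPM with Tconv and 247, 259, 250.01 and 248 TPM with Treg. The 3 IL-10 groups did not overlap. Mfge8 fell by 0.46 with Tconv (SE 0.03, limma adjusted p = 5.11e-05) and by 0.25 with Treg (SE 0.03, limma adjusted p = 2.86e-04).

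Itgav had 37.5, 41.2, 40.0 and 42.0 TPM with Tconv and 36.6, 38.1, 37.1 and 38.4 TPM with Treg. The Treg libraries lay below every non-phagocytic library. The fall by 0.19 with Treg was called (SE 0.05, limma adjusted p = 0.044), but the call was lost in 11 of 17 alternatives, among them leaving out any 1 library other than non-phagocytic replicate 4 (limma adjusted p = 0.0715 to 0.0963). With Tconv the difference was -0.10 (95% confidence interval -0.23 to 0.03). Itgb3 was at 1.68, 1.97, 1.33 and 1.64 TPM with Tconv and 1.33, 1.37, 1.48 and 1.75 TPM with Treg. All were above the non-phagocytic range. The difference of 0.45 with Tconv was called (SE 0.11, limma adjusted p = 0.0441) and was lost in 12 of 16 alternatives, among them leaving out any 1 library other than Tconv Ax647-1 (limma adjusted p = 0.0677 to 0.111). Itgb3 passed the filter here only through the phagocytic libraries, and with no filter the Tconv call was lost too (limma adjusted p = 0.0638). With Treg the difference was 0.36 (limma adjusted p = 0.0727).

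**Figure D2:**
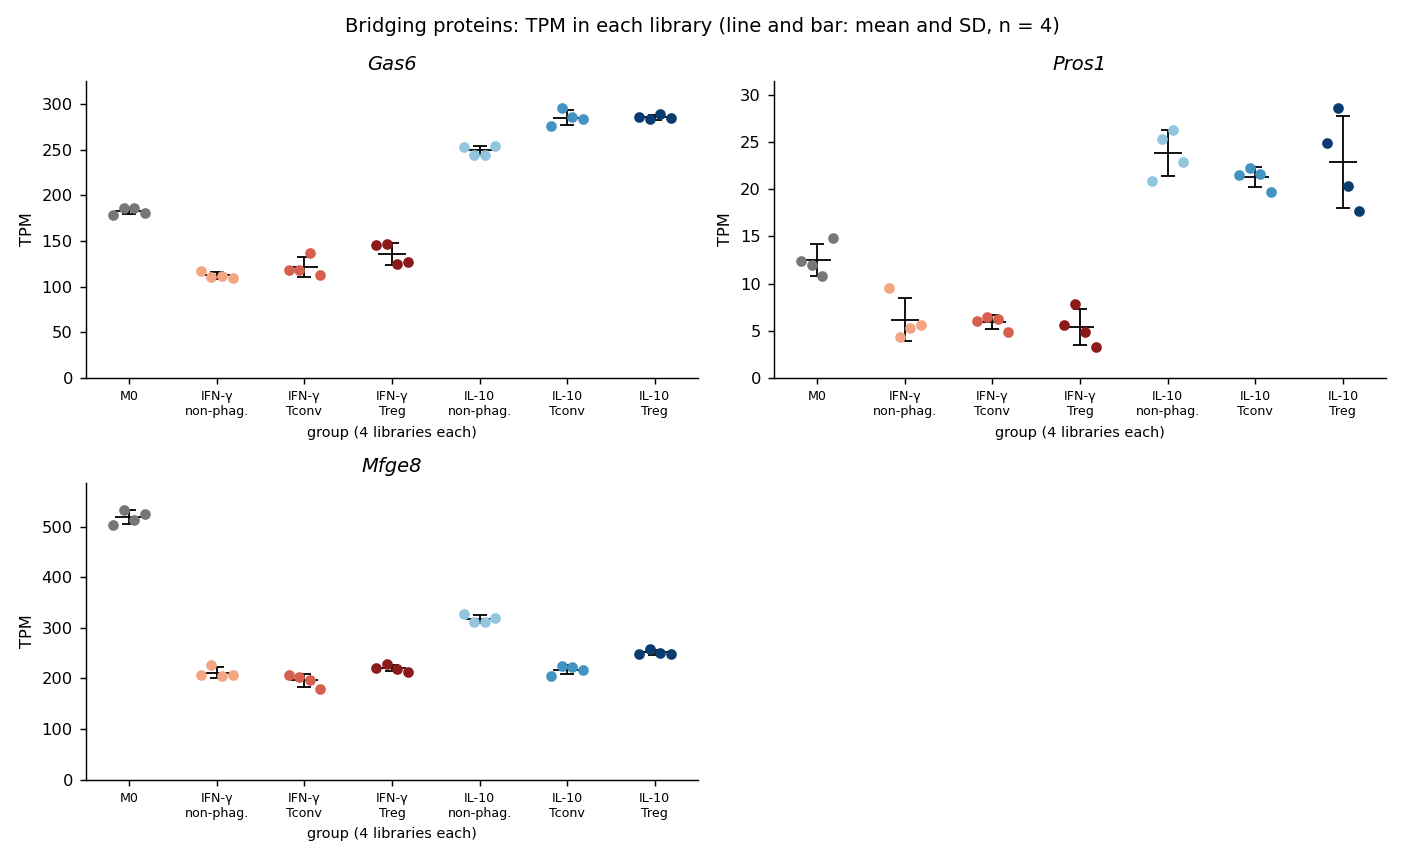
TPM (vertical axes from 0) of the bridging proteins Gas6, Pros1 and Mfge8 in the 7 groups, with 1 point per library and the mean and SD of 4. Gas6 and Pros1 are low under IFN-γ and high under IL-10, whereas Mfge8 is highest in M0 and lower in every cytokine group.

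Under IFN-γ, calls with uptake were limited to Itgav and Gas6 with Treg. Itgav and Gas6 rose in Treg-phagocytic against non-phagocytic libraries, while no gene was called in Tconv-phagocytic against non-phagocytic libraries. With Treg, 2 of 8 genes were called, both higher, beside 9.42% of 11891 genes tested, and without scaling 2 were higher and 1 lower. With Tconv, 0 of 8 genes were called by limma, beside 0.0% of 12134 genes, and 779 of all genes and 1 of the 8 (Mfge8) had an unadjusted p under 0.05. Their medians were 0.10 and 0.02, against 0.05 and 0.00 over all genes. These comparisons, too, share their 4 non-phagocytic libraries. Of the 10 macrophage markers, 5 were higher and 0 lower with Treg (median 0.21) and 0 were called with Tconv. Of the 12 T cell markers, 1 was higher with Treg and 0 were called with Tconv. Of 6 markers of Treg cells, Foxp3 among them, 0 were called with Treg, with Tconv or between Treg and Tconv.

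Mertk had 19.6, 27.97, 25.2 and 25.8 TPM with Tconv and 16.8, 13.1, 15.5 and 15.6 TPM with Treg. All 4 Treg libraries were below every non-phagocytic library, and the Tconv libraries spread across and above them. The log2 difference from non-phagocytic libraries was -0.41 with Treg (SE 0.11, limma adjusted p = 0.0534) and 0.13 with Tconv (95% confidence interval -0.13 to 0.40), and neither was called. Axl had 34.8, 38.2, 39.4 and 44.8 TPM with Tconv and 39.4, 38.8, 34.99 and 29.1 TPM with Treg. Both ranges overlapped with the non-phagocytic one. Its differences were -0.24 (95% confidence interval -0.51 to 0.04) and -0.26 (-0.56 to 0.04).

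Tyro3 was uneven among the phagocytic IFN-γ libraries. It had 1.60 and 1.77 TPM in the Tconv libraries numbered 1 (BV421-1 and Ax647-1) but 0.09 and 0.16 TPM in those numbered 2. With Treg it had 2.45 and 2.75 TPM in the libraries numbered 1 (Ax647-1 and BV421-1) but 0.00 and 0.47 TPM in those numbered 2. The number thus split both groups alike, with every library numbered 1 above 1 TPM and every library numbered 2 below 0.5 TPM. The labels do not say what the number marks, and the IL-10 libraries showed no such split (0.10 to 0.20 TPM for number 1, 0.15 to 0.45 for number 2). Timd4 was at 0.94, 0.73, 0.27 and 0.14 TPM with Tconv and at 0.16, 0.00, 0.00 and 0.20 TPM with Treg. These correspond to no more than about 6 reads in any of these 8 libraries. Stab1 had 53.8, 57.3, 56.1 and 55.3 TPM with Tconv and 54.3, 52.6, 59.4 and 52.5 TPM with Treg, and all 3 IFN-γ groups overlapped.

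Gas6 had 137, 113, 118 and 119 TPM with Tconv and 146, 147, 125 and 127 TPM with Treg. The Treg libraries were all above the non-phagocytic range, and the Tconv libraries overlapped with it. The rise of 0.34 with Treg (SE 0.07, limma adjusted p = 0.0169) was lost without non-phagocytic replicate 2 (limma adjusted p = 0.0502) or replicate 4 (limma adjusted p = 0.0527). Pros1 had 6.27, 4.81, 6.07 and 6.47 TPM with Tconv and 5.63, 7.83, 4.84 and 3.32 TPM with Treg, inside the range of the non-phagocytic libraries apart from the lowest. Mfge8 had 196, 178, 206 and 203 TPM with Tconv and 221, 227, 219 and 212 TPM with Treg. As TPM, each overlapped with the non-phagocytic group. Its log2 differences were -0.16 with Tconv (limma adjusted p = 0.729) and 0.13 with Treg (limma adjusted p = 0.167).

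Itgav, the αv subunit through which MFG-E8 acts, had 16.7, 21.0, 19.1 and 22.1 TPM with Tconv and 32.0, 26.9, 25.3 and 26.7 TPM with Treg. Every Treg library was above all 8 other IFN-γ libraries. It rose by 0.68 with Treg (SE 0.13, limma adjusted p = 0.0089), or 1.60-fold, and this call held in all 17 alternatives. The difference with Tconv was 0.08 (95% confidence interval -0.21 to 0.37). Itgb3 had 2.70, 2.67, 2.47 and 3.51 TPM with Tconv and 3.07, 2.59, 3.77 and 3.19 TPM with Treg. Both overlapped with the non-phagocytic range, and neither difference was called (0.24 and 0.45, limma adjusted p = 0.886 and 0.281).

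**Figure D3:**
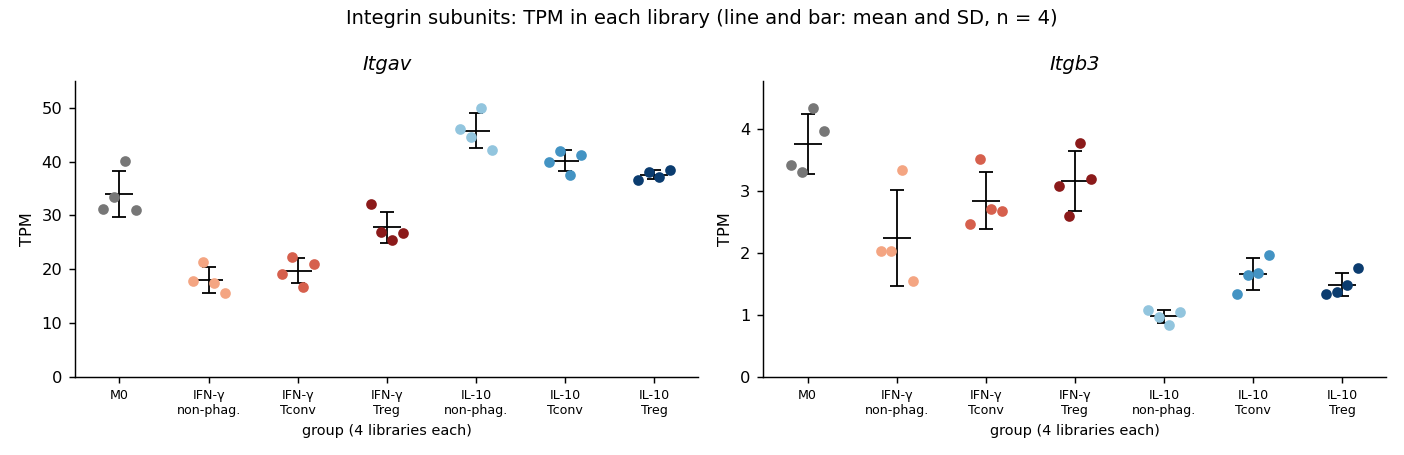
TPM (vertical axes from 0) of the integrin subunits Itgav and Itgb3 in the 7 groups, with 1 point per library and the mean and SD of 4. Under IFN-γ the Treg-phagocytic libraries carry more Itgav (25.3 to 32.0 TPM) than the other 8 libraries, and Itgb3 is lowest in non-phagocytic IL-10 macrophages.

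Macrophages that took up Treg and those that took up Tconv differed in Mertk and Itgav under IFN-γ and in Mfge8 under both cytokines. Under IFN-γ, 9 genes were tested (Tyro3 passed the filter here) and 3 were called, Itgav and Mfge8 higher and Mertk lower with Treg, beside 14.5% of 11980 genes; without scaling 1 was higher and 1 lower. Under IL-10, 1 of 8 was called, Mfge8, higher with Treg, beside 1.76% of 11870 genes. The median of the genes tested was 0.21 and 0.04, against 0.06 and -0.00 over all genes.

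Under IFN-γ, the 4 Treg values of Mertk (13.1 to 16.8 TPM) lay below the 4 Tconv values (19.6 to 27.97 TPM), and the log2 difference was -0.54 (SE 0.13, limma adjusted p = 0.0242), or 1.45-fold. The call was lost in 6 of 20 alternatives other than the within-dye fits. It was lost without Tconv BV421-2 (limma adjusted p = 0.0768), Tconv Ax647-1 (0.0681), Tconv Ax647-2 (0.0716) or Treg Ax647-2 (0.0534), the shallowest library. It was also lost with the replicate block by library names (limma adjusted p = 0.066) or by titles (0.0538). The Mertk difference was -0.63 to -0.45 within either dye by either reading, where fits of 2 against 2 libraries called neither it nor the other 2 genes. Itgav was higher with Treg by 0.60 (SE 0.12, limma adjusted p = 0.00972), kept its call in all 20 alternatives other than the within-dye fits and was 0.47 to 0.72, not called, within either dye (limma adjusted p = 0.154 to 0.246). Mfge8 was higher with Treg by 0.29 (SE 0.06, limma adjusted p = 0.00989), a call lost without scaling (limma adjusted p = 0.0994). Gas6 was 0.28 higher with Treg and was not called (limma adjusted p = 0.0602). Axl differed by -0.02 (95% confidence interval -0.28 to 0.23) and Tyro3 by 0.32 (-0.88 to 1.53). Macrophage markers were higher with Treg too, 7 of 10 called higher and 0 lower (median 0.25, sum 23898 to 24134 against 19207 to 21803 TPM). Lyz2 alone made up 17960 to 18393 TPM of that sum with Treg and 14003 to 16091 TPM with Tconv. T cell marker sums overlapped (641 to 989 TPM with Treg, 655 to 832 with Tconv), with 1 of 12 called higher. The part of these markers was not tested. Every Treg library was shallower (relative depth 11.2% to 20.5%) than every Tconv library (20.9% to 24.3%), and the part of depth was not tested.

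Under IL-10, Mfge8 was higher with Treg than with Tconv by 0.21 (SE 0.03, limma adjusted p = 0.0122, a call lost in 1 of 20 alternatives), and all 4 Treg values (247 to 259 TPM) exceeded all 4 Tconv values (205 to 225 TPM). Within either dye the difference was 0.18 to 0.24 and was not called (limma adjusted p = 0.237 to 0.423). Mertk was higher with Treg by 0.18 (95% confidence interval 0.07 to 0.28) with no overlap between the groups, and was not called (limma adjusted p = 0.109). Axl differed by 0.08 (95% confidence interval -0.05 to 0.22). T cell markers were higher with Treg (3 of 12 called, sum 281 to 308 against 193 to 236 TPM) and stromal markers lower (8 of 8 tested, sum 32.7 to 36.3 against 171 to 187 TPM), and their part was not tested. Of 5 Treg cell markers tested, 2 were called higher with Treg. Relative depth was again lower with Treg (49.2% to 65.8%) than with Tconv (76.0% to 90.1%), and its part was not tested.

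**Figure D4:**
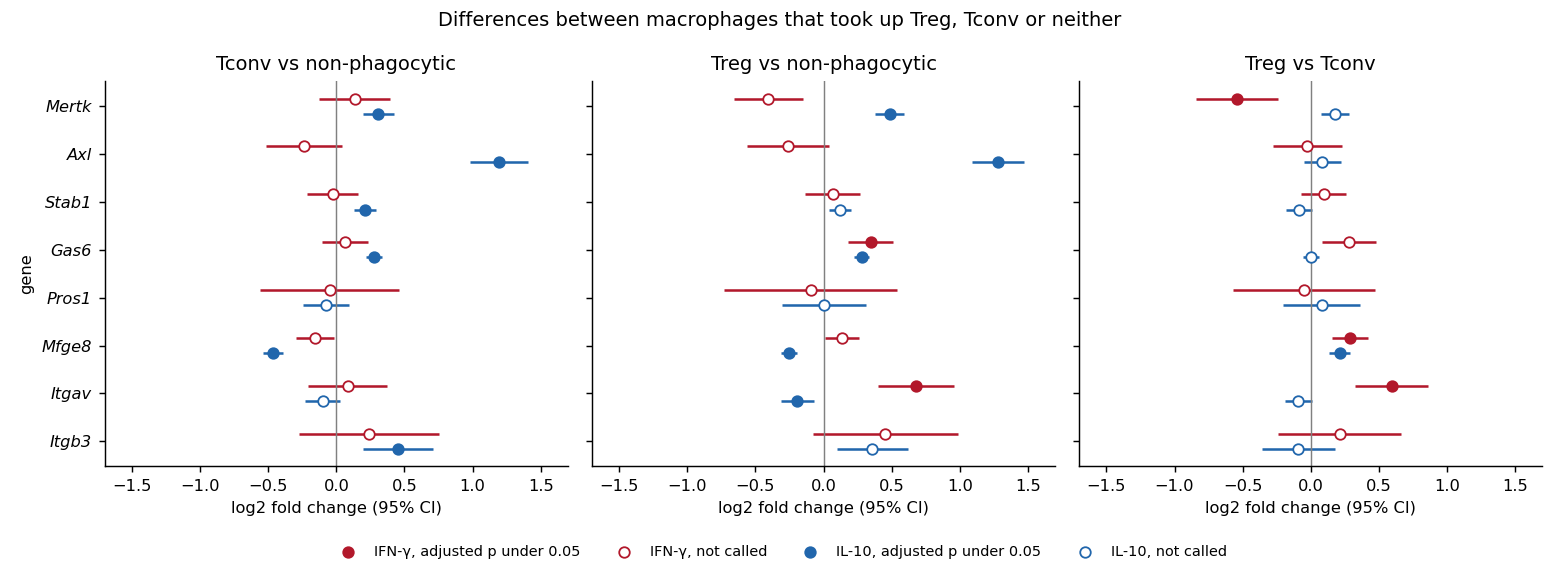
Log2 fold change (horizontal axes, bars 95% confidence intervals) of the 8 genes in Tconv-phagocytic against non-phagocytic, Treg-phagocytic against non-phagocytic and Treg- against Tconv-phagocytic libraries, under IFN-γ (red) and IL-10 (blue). Filled points were called at a limma adjusted p under 0.05; under IL-10 Axl and Mertk lie to the right with uptake of either cell, and under IFN-γ Mertk lies left and Itgav right in Treg against Tconv.

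The differences between sorted groups were then compared between the cytokines by the difference of the differences (IFN-γ minus IL-10). For Treg against Tconv, 2 of 9 genes were called, beside 14.2% of 12918 genes: Mertk at -0.72 (SE 0.13, limma adjusted p = 0.00168) and Itgav at 0.69 (SE 0.12, limma adjusted p = 9.99e-04). For Treg against non-phagocytic, 4 of 8 were called, beside 9.8% of 12872 genes. Axl led with -1.54 (SE 0.17, limma adjusted p = 2.21e-05), as it rose with Treg uptake under IL-10 and did not pass the test under IFN-γ. Mertk followed with -0.89 (SE 0.10, limma adjusted p = 4.54e-05), Itgav with 0.87 (SE 0.13, limma adjusted p = 3.1e-04) and Mfge8 with 0.39 (SE 0.05, limma adjusted p = 2e-04). For Tconv against non-phagocytic, 2 of 8 were called, beside 1.83% of 13075 genes. These were Axl at -1.43 (SE 0.16, limma adjusted p = 2.68e-04) and Mfge8 at 0.31 (SE 0.07, limma adjusted p = 0.0263). The Mfge8 call was lost in 7 of 25 alternatives, among them leaving out Tconv Ax647-1 under IFN-γ, non-phagocytic replicate 1, 3 or 4 under IL-10, or Tconv BV421-2 or Ax647-1 under IL-10 (limma adjusted p = 0.0545 to 0.0674). The other 7 calls of these differences held in all alternatives other than the within-dye fits. Within either dye, the Treg against Tconv difference of Itgav was not called (limma adjusted p = 0.0765 to 0.157). That of Mertk was called only in Ax647 libraries by library name (limma adjusted p = 0.0346, otherwise 0.0698 to 0.264). The depth of the IFN-γ libraries was lower than that of the IL-10 libraries throughout.

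The balance within each family can be read from ratios of TPM in the same library. Axl over Mertk was 2.48 ± 0.37 (SD, n = 4) in M0, 2.11 ± 0.38 in non-phagocytic IFN-γ and 1.14 ± 0.18 in non-phagocytic IL-10 libraries. With uptake under IL-10 it stood at 2.14 ± 0.28 (Tconv) and 1.99 ± 0.08 (Treg), so that it no longer overlapped with the non-phagocytic range of 0.98 to 1.39. Under IFN-γ it was 1.61 ± 0.18 with Tconv and 2.36 ± 0.45 with Treg. Gas6 over Pros1 was lowest in non-phagocytic IL-10 libraries (10.5 ± 1.32) and highest in Treg-phagocytic IFN-γ libraries (27.1 ± 8.07), where single libraries ranged from 18.7 to 38.2. Itgav over Itgb3 was 9.07 ± 0.95 in M0 but 47.6 ± 8.76 in non-phagocytic IL-10 libraries and 24.7 ± 4.07 and 25.6 ± 2.72 with Tconv and Treg uptake. All IFN-γ groups had means of 7.01 to 8.98. Itgav outnumbered Itgb3 in every library.

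**Figure D5:**
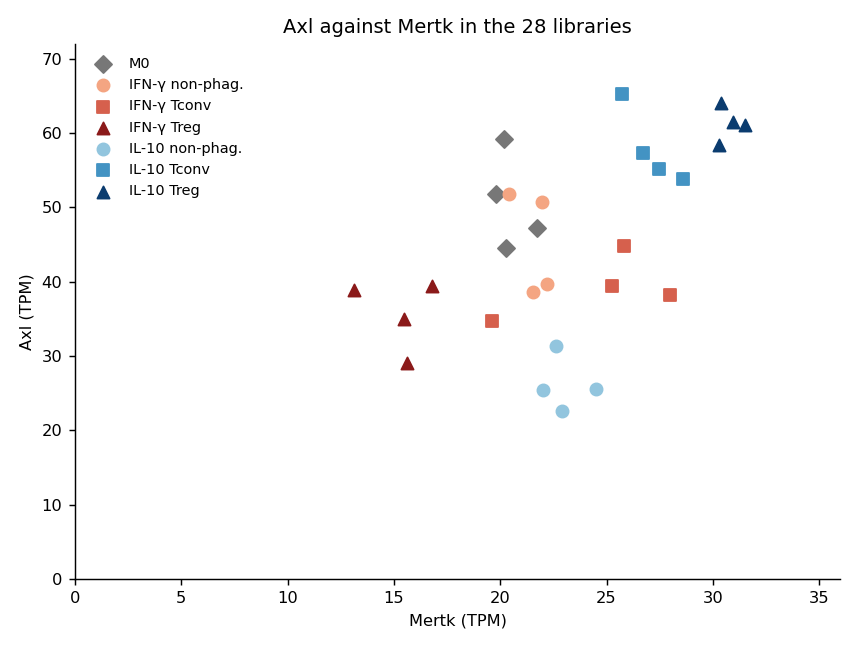
Axl against Mertk, both in TPM, with 1 point for each of the 28 libraries. Non-phagocytic IL-10 libraries (pale blue circles) lie at 22.5 to 31.4 TPM of Axl, the IL-10 libraries with uptake at 53.8 to 65.3 TPM, and the Treg-phagocytic IFN-γ libraries (dark red triangles) furthest left, at 13.1 to 16.8 TPM of Mertk.

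Over all 28 libraries, 8 of the 10 genes were above 0 in every library, Tyro3 was at 0 in 2 and Timd4 in 10. By median TPM the order was Mfge8 (226), Gas6 (183), Stab1 (80.6), Axl (44.6), Itgav (32.7), Mertk (22.4), Pros1 (12.2), Itgb3 (2.03), Tyro3 (0.17) and Timd4 (0.08). Pros1 had the widest range, 8.62-fold from the lowest to the highest library, and Mertk and Stab1 the narrowest of the 8, 2.40-fold each. On scaled TPM, Mertk was lowest with Treg uptake under IFN-γ (mean 17.8) and highest with Treg uptake under IL-10 (mean 29.1). Between these, M0 overlapped with the IFN-γ Treg group, IL-10 non-phagocytic and IFN-γ non-phagocytic libraries stood apart from the group below them, and the upper 4 groups each overlapped with their neighbour. For Axl, only the lowest group, non-phagocytic IL-10 (mean 23.4), was separate from its neighbour, and the other 6 groups (means 41.6 to 57.9) formed a run in which each overlapped with the next.

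As a description, the Pearson correlation of log2 values over the 28 libraries, which share the group structure, was 0.95 between Gas6 and Stab1, 0.90 between Gas6 and Pros1, 0.82 between Gas6 and Itgav and -0.80 between Pros1 and Itgb3. Mertk and Axl had 0.42, Axl and Gas6 0.07 and Mertk and Mfge8 -0.65. Among 8731 other genes with a mean of at least 5 TPM, the patterns most like Gas6 were those of Ctsb (0.98), Apoe (0.98) and Tpi1 (0.98). For Stab1 they included Pgk1 (0.97) and Ldha (0.97), and for Pros1 they were Sash1 (0.96), Cux1 (0.96) and Slc16a3 (0.95). Genes most like Mfge8 included Sqstm1 (0.96) and Fam129b (0.95). The receptors had looser matches, with Stx12 (0.83), Dnajb14 (0.80) and Vmp1 (0.79) for Mertk and Hpse (0.84), Ncoa4 (0.77) and Vcam1 (0.70) for Axl. Itgav came closest to Nt5dc2 (0.90), Ccr1 (0.89) and Rab32 (0.89), and Itgb3 to Clec7a (0.90), Prdx1 (0.89) and Creg1 (0.89). Tyro3, at 0 or near it in most libraries, had Hnmt (0.78), Esco1 (0.74) and Arl4a (0.74).

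Other receptors and bridging proteins for apoptotic cells were among the genes called with Treg uptake under IFN-γ. Of 28 further recognition genes, 21 were tested in Treg- against Tconv-phagocytic IFN-γ libraries, with 7 higher and 1 lower, beside 14.5% of all genes called (list median 0.24, all genes 0.06, macrophage markers 0.25 with 7 of 10 higher). The scavenger receptor Cd36 (199.5 ± 18.8 against 159 ± 7.93 TPM, SD, n = 4) and the bridging protein Anxa1 (549 ± 6.52 against 460.4 ± 25.9 TPM) rose by 0.44 and 0.38 with Treg. The phosphatidylserine receptor Cd300lf fell by 1.47 (3.11 ± 1.31 against 11.1 ± 4.76 TPM, limma adjusted p = 0.0124). Against non-phagocytic IFN-γ libraries, Treg uptake went with 9 of 21 higher and 1 lower, beside 9.42% of all genes (list median 0.24, all genes 0.05), and Tconv uptake with 0 called, beside 0.0%. Under IL-10, 7 of 21 were higher and 1 lower with Treg, beside 13.1% of all genes, and 6 higher and 2 lower with Tconv, beside 7.26%, against non-phagocytic libraries (list medians -0.04 and 0.07). Thrombospondin-1 (Thbs1), which bridges to Cd36 and αv integrins, fell by 0.36 with Treg against Tconv under IL-10 (378 ± 2.66 against 487 ± 4.91 TPM, limma adjusted p = 1.17e-05), and the complement subunits C1qb and C1qa fell by 0.23 and 0.20. In non-phagocytic macrophages, 7 of 21 were higher and 12 lower under IFN-γ than under IL-10, beside 54.7% of all genes (list median -0.15, all genes -0.02), with Thbs1 at -2.59, Itgb5 at -1.21 and C1qa at -1.08.

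Of 23 partners of the TAM pathway, 22 were tested under IFN-γ, and with Treg against Tconv 2 rose and 1 fell, a share near the 14.5% of all genes called (list median 0.01, all genes 0.06). Vkorc1, which recycles the vitamin K that Gas6 and protein S need, rose by 0.58 (102 ± 18.7 against 73.1 ± 7.37 TPM, limma adjusted p = 0.0184). Under IL-10 with Treg against non-phagocytic libraries, 7 of 21 rose and 3 fell, beside 13.1% of all genes (list median 0.02, all genes -0.00). Among them were the lipid-sensing receptors Nr1h3 (0.35, limma adjusted p = 0.0397, a call lost in 9 of 17 alternatives) and Pparg (0.28, limma adjusted p = 0.00833). With Tconv 3 of 20 rose and none fell, beside 7.26%. The feedback inhibitor Socs3 was at 168 ± 4.58 TPM in non-phagocytic IL-10 libraries, 14.9 ± 2.62 under IFN-γ and 3.79 ± 1.16 in M0.

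Among 19 genes of the engulfment machinery, 17 were tested, and 3 rose and 0 fell with Treg against Tconv under IFN-γ, near the 14.5% of all genes (list median 0.07, all genes 0.06). The small GTPases Cdc42 and Rhog rose by 0.25 and 0.24 (each call lost in 1 of 20 alternatives), and the kinase Ptk2 by 0.90, a call lost in 10 of 20 alternatives. Under IL-10 the same comparison called 0 of 17 by limma, beside 1.76% of all genes. Of 9 partners of the integrin subunits, 7 were tested, and 1 was called with Treg against Tconv under IFN-γ, beside 14.5% of all genes. Syk, a kinase downstream of integrins, fell by 0.50 there (104 ± 2.31 against 160.2 ± 11.0 TPM, limma adjusted p = 0.00127). In non-phagocytic libraries 4 of these 7 were lower and 0 higher under IFN-γ than under IL-10, near the 54.7% of all genes called, with Itgb5, the β5 partner of αv (78.7 ± 2.60 against 228 ± 3.76 TPM). Of 11 genes of inhibitory recognition and lipid exposure, 10 were tested and 2 called with Treg against Tconv under IFN-γ, beside 14.5% of all genes: the inhibitory receptors Lilrb4a and Pirb fell by 0.42 and 0.39 (limma adjusted p = 0.0174 and 0.00407). Pirb also fell by 0.20 with Treg against non-phagocytic libraries under IL-10 (limma adjusted p = 4.22e-04). There it was the 1 lower gene of 10 tested, and 2 were higher, beside 13.1% of all genes called.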

How the data were processed

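The deposited values are TPM per Ensembl gene ID in 28 libraries, written with 2 decimals, per the file headers. Per the labels' protocols, the authors made strand-specific libraries of poly(A) RNA, and the submitters' processing notes name STAR, RSEM and the build mm10 without roles or versions. Of 55487 gene IDs, 55141 were matched to a symbol. No counts were used and total depth is unknown; relative depth was read from low values of genes with 1 transcript of 500 to 2000 nt, of which 87.3% to 91.1% lay within 0.15 reads of a whole number. Of 378 pairs of libraries, 0 held identical values, and no library was left out.

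Each TPM was divided by a scaling factor (unweighted trimmed mean of log2 ratios over 11119 genes, trimming 30% of ratios and 5% of levels at each end), 1 was added and log2 taken, so fold changes of low genes are understated. A gene was tested if 4 or more libraries of the fit had 1 TPM or more. The test was limma 3.58.1 (R 4.3.3, lmFit and eBayes with trend) with only the groups compared in each fit, because the spread between replicates is larger under IFN-γ. Fits that held IFN-γ together with IL-10 or M0 libraries still used 1 variance per gene for all their groups. Calls are at an adjusted p under 0.05 (Benjamini-Hochberg over all genes tested). Tyro3 passed this filter in 2 of the 12 comparisons, through the IFN-γ phagocytic libraries, and Timd4 in none. Itgb3, at 0.83 to 1.07 TPM in non-phagocytic IL-10 libraries, passed it in fits with that group only through the other groups. Scripts were tested on simulated data. The members and gene lists were chosen with earlier results of these data known. All 10 listed genes are named. From each list, up to 3 called genes with the largest change and a mean of at least 5 TPM in the higher group were eligible to be named. A few genes that these rules pick are not reported here and have no substitutes. Likeness ranks genes by Pearson correlation over the 28 libraries. Levels are TPM as deposited unless called scaled. Alternatives changed the libraries in the fit, variance weights, scaling, the pseudocount (0.1 or 5), the filter (none, or 5 TPM), the replicate block, the dye as a covariate, and left out each library. Protein sequences were not analysed here.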

Additional observations from a re-analysis of the deposited data

Results flagged for a closer look

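A library far from the other 3 of its group was found in 4 of the 70 sets of 4 values, and chance alone flags about 1 in 20 such sets. Mfge8 was at 227.07 TPM in non-phagocytic IFN-γ replicate 2, against 205.15 to 206.66 in the others. Tyro3 was at 0.45 TPM in the IL-10 Tconv Ax647-2 library, against 0.16 to 0.20, and Timd4 was at 0.07 TPM in that library, against 0.22 to 0.25. Timd4 was at 0.04 TPM in non-phagocytic IL-10 replicate 2, where the others were at 0.

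The difference between sorted groups was not the same under IFN-γ and IL-10, by a test of that contrast itself, in 8 cases. For Treg against Tconv these were Mertk (-0.72) and Itgav (0.69). For Treg against non-phagocytic they were Axl (-1.54), Mertk (-0.89), Itgav (0.87) and Mfge8 (0.39). For Tconv against non-phagocytic they were Axl (-1.43) and Mfge8 (0.31). All are log2 values, IFN-γ minus IL-10.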

How the results depend on the processing

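Recomputed under the alternatives other than the within-dye fits, 98 log2 fold changes of listed genes (46 called) gave 1898 values. Of these, 1818 kept their side of the threshold, 48 lost the call, 31 gained one and 1 reversed. The reversed value was Mertk in IFN-γ against IL-10, at -0.0919 without scaling. Among the 1818, the sign differed in 36 values that were not called with either setting.

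The number of listed genes called in Treg against non-phagocytic libraries under IFN-γ was 2 and became 6 in a model of all 28 libraries. Mertk, Itgb3 and Mfge8 gained calls there (limma adjusted p = 2.89e-04, 0.0208 and 0.0155). Tyro3 was also counted, a gene untested in the main fit of this comparison. It entered that model only through its 4 libraries at 1 TPM or more, all phagocytic under IFN-γ. In Treg against Tconv under IL-10 the number called was 1 and became 2 with a variance weight per group and 0 with the replicate block by library names (Mfge8, limma adjusted p = 0.0593). In the difference of Tconv against non-phagocytic the number was 2 and became 1 with the replicate block by number. The labels do not say whether the numbers pair the libraries. Same-numbered libraries correlated in their deviations over all genes by only -0.067 to 0.082 over all readings, which cannot exclude a pairing. Mertk in Treg against Tconv under IFN-γ had a limma adjusted p of 0.066 or 0.0538 under the block. Leaving out 1 library gave 2 to 4 genes for Treg against Tconv, 1 to 2 for Treg against non-phagocytic and 0 to 0 for Tconv against non-phagocytic under IFN-γ, and 1 to 1, 4 to 5 and 5 to 6 under IL-10. It gave 7 to 8 for IFN-γ against IL-10, 5 to 7 for IFN-γ against M0, 7 to 8 for IL-10 against M0, and 2 to 3, 4 to 4 and 1 to 3 for the 3 differences.

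Over all genes, the model of all 28 libraries called 4415 instead of 1741 (Treg against Tconv), 3852 instead of 1120 (Treg against non-phagocytic) and 116 instead of 0 (Tconv against non-phagocytic) under IFN-γ. Under IL-10 it called 107 instead of 209, 636 instead of 1552 and 255 instead of 863, and 1799 instead of 3653 for IL-10 against M0, while variance weights called 366 instead of 209. Without scaling, the difference of Tconv against non-phagocytic had 121 calls instead of 239. The share of calls that were higher moved without scaling from 42.6% to 16.8%, 36.2% to 17.1%, 61.3% to 26.1% and 71.7% to 24.2% (Treg against Tconv and against non-phagocytic under IFN-γ, Treg and Tconv against non-phagocytic under IL-10), from 51.3% to 28.6% (IFN-γ against IL-10), from 50.8% to 29.8% (IFN-γ against M0), and from 43.1% to 19.2% and 13.4% to 64.5% (differences of Treg against Tconv and of Tconv against non-phagocytic). In the main fits Timd4 passed the filter in no comparison, and Tyro3 was tested in 2, with wide intervals.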
